A study of Mus musculus with 9 samples.

Results

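The genes described here are 7 genes of lipid synthesis in sebaceous gland cells, Scd3, Elovl3, Far2, Awat2, Dgat2l6, Soat1 and Mc5r. They were taken by gene name from the gene table and joined to the count table by gene identifier. All 7 of 7 were found among 34637 genes with FPKM values and 55401 genes with counts. All 7 also passed the filter on low counts, which left 20817 genes for testing.

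Sebaceous glands open into hair follicles and release sebum when their cells fill with lipid droplets and burst. Sebum of rodents is rich in wax esters, triglycerides and esters of cholesterol. Its fatty acids are desaturated by enzymes such as Scd3 and lengthened by elongases such as Elovl3, reduced to fatty alcohols by Far2 and joined to alcohols by acyltransferases such as Awat2. Soat1 esterifies cholesterol, and Mc5r is the melanocortin receptor through which pituitary peptides stimulate sebum production.

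The data were RNA-seq of back skin from male C57BL/6 mice, aged 6 to 8 weeks at the start of the experiment. They had dermatitis raised by DNCB, a small reactive molecule that causes contact allergy when painted on skin. All mice received 1% DNCB on day 1 and 0.5% DNCB from day 4 to day 21, and skin was collected on day 28. The Model group (4 libraries) was given water, and the FJDHF group (5 libraries) was given the Fangji Dihuang formulation, a herbal extract, at the middle dose by oral tube daily after day 7. The study asked what the formulation changes in lesional skin, and no skin without DNCB was analysed here, so each comparison is between treated and untreated dermatitis.

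Neither the labels nor the paper explain the column codes of the tables. The 5 MR columns were assigned to FJDHF and the 4 MXL columns to Model, because these are the group sizes, and every direction given below rests on that choice. Nothing shows whether a code like MR3_4 marks RNA of several mice, so n counts libraries and the p-values measure the spread between them.

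Total counts were 74648669 to 79474215 per library, and counts of the 7 genes ran from 387 to 58929, so counting error was small beside the spread between libraries. In the edgeR quasi-likelihood test, adjusted by the Benjamini-Hochberg method, 0 of 20817 genes (0.0%) passed an adjusted p under 0.05 with a fold change of at least 2, and 326 genes (1.57%) had an unadjusted p under 0.05. DESeq2 called 2 genes on the same criteria, Defb8 and Casp14, and neither was one of the 7. The keratinocyte genes Krt5 and Krt14 were at 575 CPM or more and 203 CPM or more in every library. Libraries differed in tissue makeup. The mean level of 16 skeletal muscle markers on the log2 scale ran from 6.79 to 9.34 in MR and from 5.29 to 10.3 in MXL, with MXL_3, MR3_4 and MR3 highest. No muscle marker was at 0 in any library.

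Positions are those of GRCm38. Scd3 (ENSMUSG00000025202, chromosome 19, 44203269 to 44244016, plus strand) stands in a cluster with Scd2, Scd4 and Scd1, and Elovl3 (ENSMUSG00000038754, 46131897 to 46135694, plus strand) lies further along the same chromosome. Awat2 (ENSMUSG00000031220, X, 100402221 to 100442717, minus strand) and Dgat2l6 (ENSMUSG00000067597, X, 100524838 to 100546144, plus strand) are neighbours of Awat1 on the X chromosome. Far2 (ENSMUSG00000030303, 148047259 to 148176849, plus strand) is on chromosome 6 and Soat1 (ENSMUSG00000026600, 156424525 to 156474331, minus strand) on chromosome 1.

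Promoter sequences are shown for 5 genes because their transcripts rose and fell together over the libraries to different degrees, with Far2 closest to the shared pattern and Scd3 farthest from it. They are the 250 bases before the RefSeq start (GRCm38.p6), written 5′ to 3′ on the strand of the gene. They cover chr6:148047166-148047415 for Far2, chrX:100442718-100442967 for Awat2, chrX:100524588-100524837 for Dgat2l6, chr1:156474329-156474578 for Soat1 and chr19:44203038-44203287 for Scd3. The RefSeq start lies inside the gene positions given above for Far2, by 157 bases, for Scd3, by 19 bases, and for Soat1, by 3 bases. The windows of these genes therefore reach into the annotated gene. Capitals mark matches to the motifs searched.
Far2: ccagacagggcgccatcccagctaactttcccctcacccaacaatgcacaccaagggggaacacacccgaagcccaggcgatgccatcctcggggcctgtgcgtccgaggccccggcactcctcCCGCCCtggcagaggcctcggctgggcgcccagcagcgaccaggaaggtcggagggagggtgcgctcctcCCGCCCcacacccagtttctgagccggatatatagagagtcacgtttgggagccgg
Awat2: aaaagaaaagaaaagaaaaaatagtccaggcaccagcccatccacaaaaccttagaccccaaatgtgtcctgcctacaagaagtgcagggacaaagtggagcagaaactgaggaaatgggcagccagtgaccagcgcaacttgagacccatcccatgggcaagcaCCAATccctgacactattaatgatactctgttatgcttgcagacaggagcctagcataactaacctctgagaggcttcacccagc
Dgat2l6: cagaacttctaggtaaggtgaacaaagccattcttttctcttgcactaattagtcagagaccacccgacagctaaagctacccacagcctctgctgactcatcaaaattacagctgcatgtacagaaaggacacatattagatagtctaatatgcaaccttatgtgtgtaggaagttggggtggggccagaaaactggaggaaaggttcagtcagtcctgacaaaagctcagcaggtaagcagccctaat
Soat1: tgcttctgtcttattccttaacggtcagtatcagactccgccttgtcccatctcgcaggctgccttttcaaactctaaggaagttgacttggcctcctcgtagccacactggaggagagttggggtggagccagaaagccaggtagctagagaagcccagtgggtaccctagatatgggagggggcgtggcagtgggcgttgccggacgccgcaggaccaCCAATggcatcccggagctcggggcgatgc
Scd3: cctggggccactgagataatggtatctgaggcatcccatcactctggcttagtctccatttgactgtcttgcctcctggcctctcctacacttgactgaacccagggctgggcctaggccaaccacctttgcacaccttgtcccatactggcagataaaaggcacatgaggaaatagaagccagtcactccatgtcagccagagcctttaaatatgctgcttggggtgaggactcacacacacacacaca

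Both strands were searched for 6 motifs, with shares taken over all 32851 promoters of that length. The TATA box, TATAAA, was found in 12.4% of them and the CCAAT box, spelled as its name, in 33.8%. The GC box, GGGCGG, was found in 32.7% and AGGTCA, a core element of nuclear receptor sites, in 14.0%. The E-box spelled CACGTG was found in 6.02% and CACNCCAC, part of a sterol regulatory element, in 5.29%. Far2 held GGGCGG on the opposite strand at 2 places, starting at positions -126 and -56 from the RefSeq start. Both places lie inside the annotated Far2 gene, whose start at 148047259 is 157 bases before the RefSeq start. Awat2 held CCAAT at -85 and Soat1 held CCAAT at -30. Dgat2l6 and Scd3 held none of the 6 motifs, and no motif was found in more than 2 of these promoters. The promoters of Elovl3 and Mc5r are not shown.

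A stretch of the Scd3 coding sequence is shown because it is the longest that Scd3 shares base for base with Scd1, so that a read lying wholly within it matches both genes. How such reads and their mates were assigned is not given in the sources used here. These 185 bases, from base 727 to base 911 of the longest transcript (chr19:44235804-44238387, GRCm38, joined across an intron), are identical in Scd1. Capitals mark the 35 bases that lie in the longest identical runs with Scd1, Scd2 and Scd4 alike.
Scd3: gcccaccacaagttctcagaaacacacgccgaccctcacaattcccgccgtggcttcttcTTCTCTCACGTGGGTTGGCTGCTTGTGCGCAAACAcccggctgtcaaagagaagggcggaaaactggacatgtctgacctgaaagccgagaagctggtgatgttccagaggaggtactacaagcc

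Of all 50-base stretches of Scd3 transcripts, 6.54% also occurred in another gene, mostly Scd1 and Scd2. For the other 6 genes the share was at most 0.506%. Elovl3 exons overlap Pitx3 on the opposite strand, which had 0 to 6 counts per library against 5770 to 24190 for Elovl3. Far2 overlaps Far2os2 (0 to 4 counts) and Ergic2 (6605 to 10520 counts against 11252 to 58929 for Far2), and whether counting used strand is not given in the sources used here.

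Per transcript length, Elovl3 was the most abundant of the 7 genes and Mc5r and Dgat2l6 were the least. Mean FPKM over the 9 libraries was 95.4 ± 40.1 (SD) for Elovl3, 53.5 ± 26.3 for Far2, 25.8 ± 29.3 for Scd3 and 15.3 ± 4.05 for Soat1. It was 6.86 ± 3.13 for Awat2, 4.51 ± 2.66 for Dgat2l6 and 3.93 ± 1.77 for Mc5r. Elovl3 exceeded Far2, Far2 exceeded Scd3, Soat1 exceeded Awat2 and Awat2 exceeded Dgat2l6 in 9 of 9 libraries each. Scd3 exceeded Soat1 in 5 of 9 libraries and Dgat2l6 exceeded Mc5r in 4 of 9, so the order within these pairs was not settled beyond their spread.

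**Figure D1:**
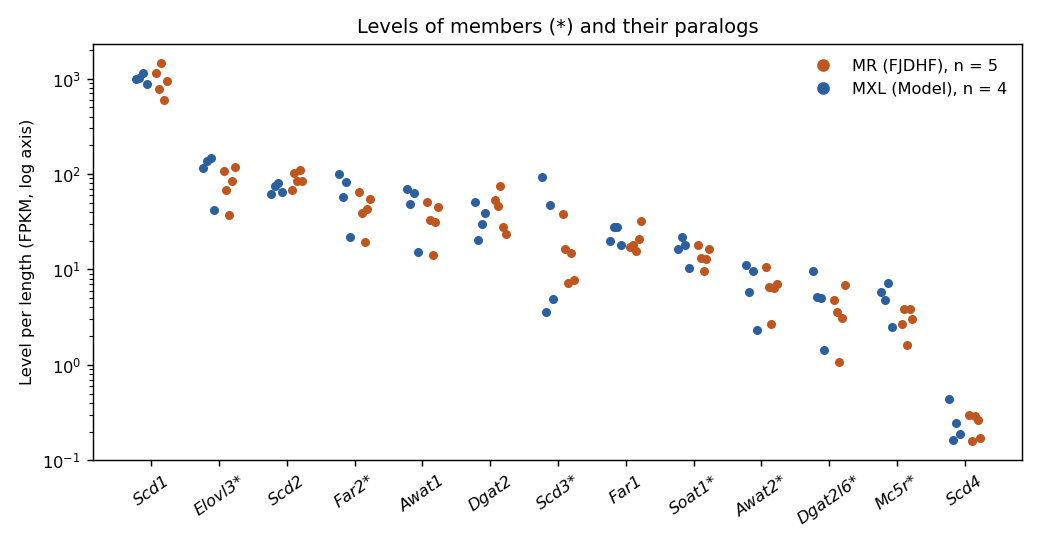
Level per length (FPKM, log axis) of the 7 genes (asterisk) and of their paralogs in each library, with MXL libraries (Model, n = 4) in blue and MR libraries (FJDHF, n = 5) in orange. Scd1 sits far above its paralog Scd3 in all 9 libraries, and the points of Scd3 are the most scattered of all genes shown.

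Levels are given below as CPM, that is, counts relative to the library total scaled with edgeR's TMM factors. Values for the MR libraries are in the order MR1, MR3, MR3_4, MR4_5 and MR5, and those for the MXL libraries in the order MXL1, MXL12, MXL3_4 and MXL_3. Changes are MR minus MXL on the log2 scale from edgeR, and exact p-values are two-sided permutation tests of mean log2(CPM + 0.5) over all 126 assignments of the libraries, with a smallest possible p of 0.00794.

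Scd3, a stearoyl-CoA desaturase largely restricted to sebaceous glands in mouse skin, varied most. It was at 143, 59.5, 28.3, 53.2 and 28.5 CPM in MR and at 337, 13.5, 182 and 19.1 CPM in MXL. The MXL libraries thus held both the highest and the lowest values, 25.0-fold apart, and the groups overlapped. Group means were 62.4 ± 47.0 CPM in MR (SD, n = 5) and 138 ± 154 CPM in MXL (n = 4). The edgeR change was -1.14 ± 0.867 (SE, adjusted p = 1.00), but the difference of mean log2 levels was only -0.30 (exact p = 0.810). MXL1 decided the size, since without it the edgeR change was -0.20 and the difference of log2 levels was 0.50.

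Elovl3, the elongase of very long chain fatty acids in sebum, was at 225, 137, 79.5, 168 and 242 CPM in MR and at 235, 289, 312 and 91.3 CPM in MXL. Its lowest value in each group was in MR3_4 and in MXL_3. Means were 170 ± 66.1 CPM in MR and 232 ± 99.1 CPM in MXL, a change of -0.45 ± 0.388 (adjusted p = 1.00, exact p = 0.429). The groups overlapped, with 2 MXL libraries above all of MR.

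Far2, which makes fatty alcohols for wax esters, was at 506, 293, 155, 319 and 413 CPM in MR and at 746, 440, 644 and 176 CPM in MXL. As for Elovl3, MR3_4 and MXL_3 were lowest, and MXL1 and MXL3_4 stood above every MR library. The means of 337 ± 132 CPM in MR and 501 ± 252 CPM in MXL gave a change of -0.57 ± 0.419 (adjusted p = 1.00, exact p = 0.389).

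Awat2, a wax ester synthase, was at 23.7, 14.0, 6.28, 13.7 and 15.4 CPM in MR and at 24.2, 12.9, 21.9 and 5.35 CPM in MXL. The groups covered nearly the same range. The means of 14.6 ± 6.20 and 16.1 ± 8.67 CPM gave a change of -0.14 ± 0.454 (adjusted p = 1.00, exact p = 0.968), with a 95% confidence interval from -1.15 to 0.87.

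Dgat2l6, an acyltransferase of the same family, was at 24.1, 17.4, 5.61, 15.1 and 33.4 CPM in MR and at 47.0, 25.6, 25.2 and 7.47 CPM in MXL. One library, MXL1, was above all of MR, and MR3_4 and MXL_3 were again lowest. Means were 19.1 ± 10.4 and 26.3 ± 16.2 CPM, a change of -0.46 ± 0.539 (adjusted p = 1.00, exact p = 0.532). Without MXL1 the change was -0.02.

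Soat1, the sterol acyltransferase that stores cholesterol as esters, was at 186, 132, 104, 129 and 166 CPM in MR and at 166, 229, 192 and 110 CPM in MXL. It varied least, 2.20-fold between its lowest and highest library. Means were 143 ± 32.5 and 174 ± 49.7 CPM, a change of -0.28 ± 0.236 (adjusted p = 1.00, exact p = 0.325).

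Mc5r (ENSMUSG00000007480), the receptor, was at 11.0, 15.4, 6.90, 15.4 and 12.2 CPM in MR and at 23.1, 19.5, 30.5 and 10.7 CPM in MXL. MXL1, MXL12 and MXL3_4 were above all of MR, while MXL_3 lay among the MR values. Means were 12.2 ± 3.55 and 21.0 ± 8.22 CPM. The change of -0.78 ± 0.324 had an unadjusted edgeR p of 0.0362, the only one under 0.05 among the 7 genes, with an adjusted p of 1.00. The exact permutation p was 0.103. The unadjusted p was under 0.05 in 10 of 19 alternatives, among them the fit without MXL12, where it rounded to 0.05. It was 0.148 with a replicate block from the column codes, 0.0511 with the skeletal muscle score as a covariate, 0.072 and 0.0733 in limma, 0.136 without MXL3_4, and 0.0578 to 0.0732 without MR1, MR3_4, MR5 or MXL1 alone. Without MXL_3 alone the exact permutation p was 0.0357. Without MR3_4 and MXL_3 it was 0.0286, the smallest possible p for so few libraries. These 2 libraries had the highest muscle and white adipocyte scores and also the lowest Mc5r levels. In both cases the groups did not overlap, because MXL_3 was the only MXL library among the MR values. These p-values are thus no separate support. The pair was chosen after the values were seen, and the p-values are not adjusted for the 7 genes.

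**Figure D2:**
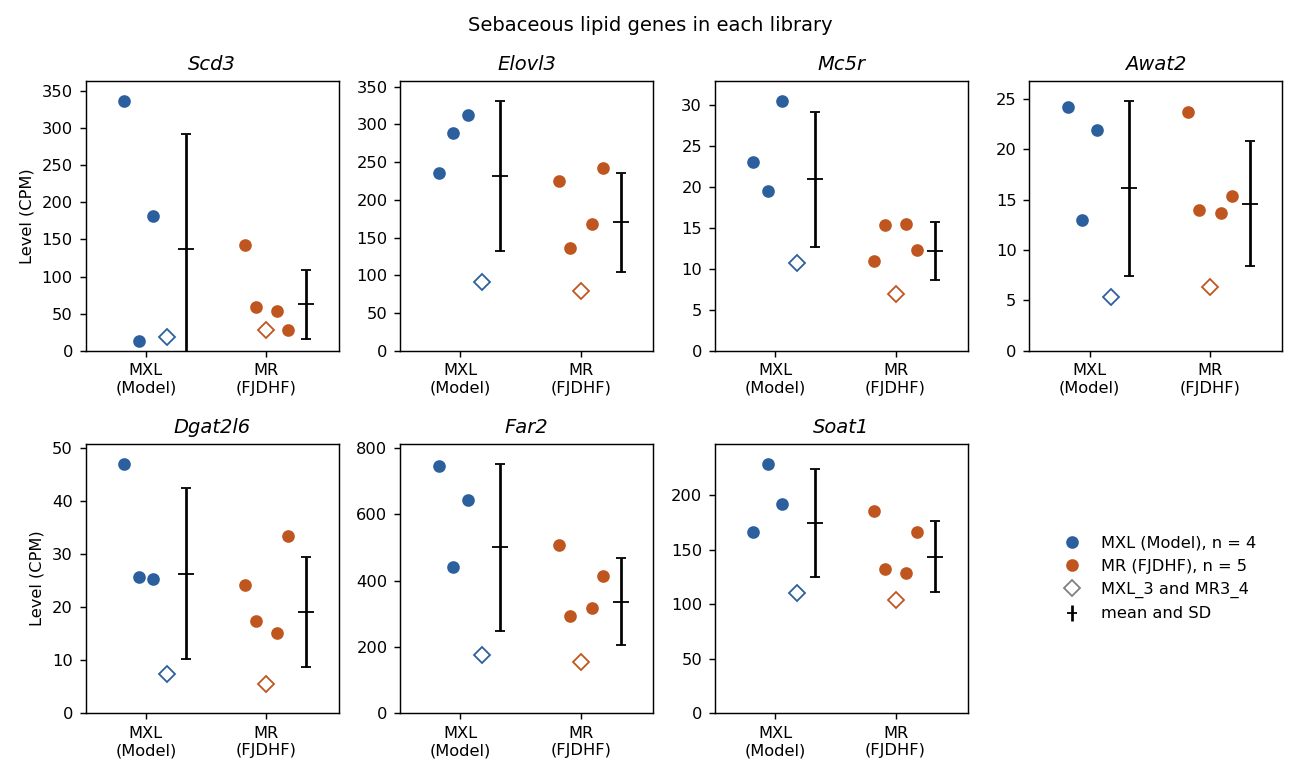
Level (CPM, linear axes from 0) of each of the 7 genes in the MXL libraries (Model, blue) and the MR libraries (FJDHF, orange), with open diamonds for MXL_3 and MR3_4 and black bars for mean and SD. MXL_3 or MR3_4 is lowest for 6 of the 7 genes, and the lower bar of Scd3 in MXL runs below 0 and is clipped.

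Across the 7 genes, all changes were negative, from -1.14 for Scd3 to -0.14 for Awat2, with a median of -0.46 against -0.03 over all tested genes, although the change of Awat2 turned positive without MR3_4 (0.051), MXL1 (0.124) or MXL3_4 (0.044). Of all tested genes, 55.9% had a negative change. None of the 7 passed the adjusted test, where 0.0% of all genes did, 1 of 7 had an unadjusted p under 0.05 with a lower level in MR, against 0.793% of all genes, and 0 of 7 had groups that did not overlap, against 0.514% of all genes. The genes share libraries and cells, so their common sign is not a set of 7 independent observations. In bulk skin, fewer sebaceous cells and less RNA per cell cannot be told apart.

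With the skeletal muscle score as a covariate the median change of the 7 genes was -0.30, and without MR3_4 and MXL_3 it was -0.53. Without MR3_4 alone it was -0.27, without MXL1 alone -0.30 and without MXL_3 alone -0.77, so each of these 3 libraries by itself moved the median by more than 1.5 times. In the fit without both libraries, 3 of the 7 genes had an unadjusted p under 0.05, namely Mc5r (0.00772), Far2 (0.0317) and Elovl3 (0.0498), and the adjusted p remained 1.00. In that fit 1.57% of all genes had an unadjusted p under 0.05. It gave the highest such count of the 19 alternatives, of which 9 left 0 of the 7 genes under 0.05, among them the muscle covariate and the fits without MR3_4, MXL1 or MXL3_4 alone.

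**Figure D3:**
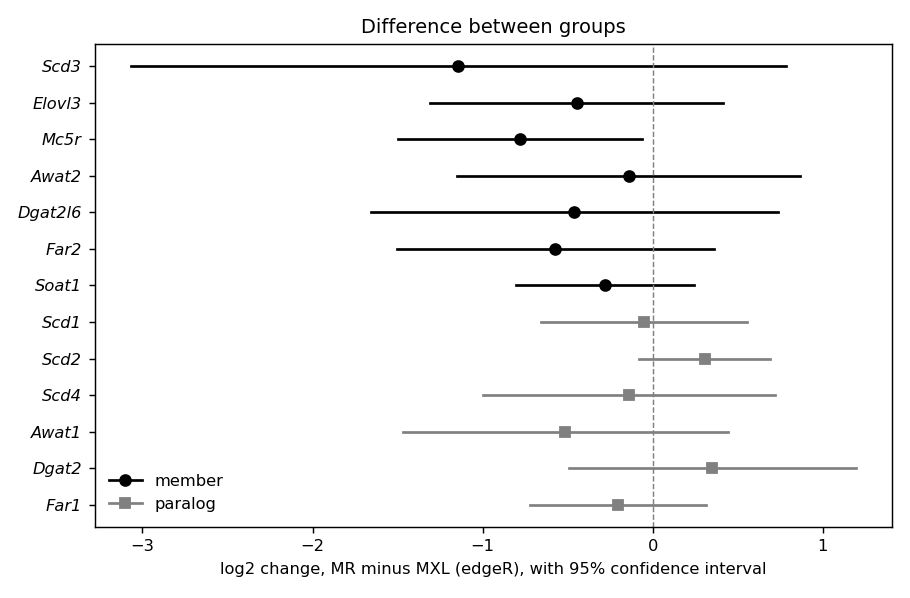
Log2 change between groups (MR minus MXL, edgeR) with its 95% confidence interval for the 7 genes (black circles) and 6 paralogs (grey squares). All 7 changes are below 0, and of the 13 intervals only that of Mc5r, from -1.50 to -0.06, leaves out 0.

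Each gene was also set against 16 other sebaceous markers and regulators, among them Krt79, Mgst1, Cidea, Pparg and Awat1, some of which (Pparg, Dgat2 and Plin2) fat cells also express. No marker of this list was at 0 in any library. Their mean log2 level ran from 6.16 to 6.82 in MR and from 6.18 to 6.92 in MXL, so the groups covered the same range. Relative to that mean, the difference was -0.66 for Mc5r (exact permutation p = 0.135) and -0.43 for Far2 (exact permutation p = 0.373). For the remaining 5 genes it lay between -0.35 and 0.01, with exact permutation p of 0.484 to 0.976.

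The 7 genes followed each other over the libraries. Correlations over 9 libraries were computed on log2(CPM + 0.5), and they describe points that share library, depth and tissue makeup. The median Pearson r of the 21 pairs was 0.77 (median Spearman rho 0.72), against a median of -0.003 over all pairs of tested genes. After subtraction of the group means it was 0.79. The tightest pairs were Awat2 with Far2 (r = 0.94), Elovl3 with Soat1 (0.94) and Dgat2l6 with Far2 (0.94).

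Both libraries with the highest muscle scores carried much of this likeness. They also had the highest white adipocyte scores, 7.21 in MR3_4 and 6.71 in MXL_3, followed by 6.64 in MR1. MR3_4 and MXL_3 were the 2 lowest libraries for 6 of the 7 genes, and without them the median r was 0.47. Far2 came closest to the mean of the other 6 genes, with r = 0.993 over all libraries and 0.98 without those 2. The value fell from 0.93 to 0.75 for Awat2, from 0.91 to 0.67 for Elovl3, from 0.91 to 0.65 for Dgat2l6 and from 0.79 to 0.43 for Soat1. For Mc5r it fell from 0.76 to 0.48 and for Scd3 from 0.57 to 0.42.

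**Figure D4:**
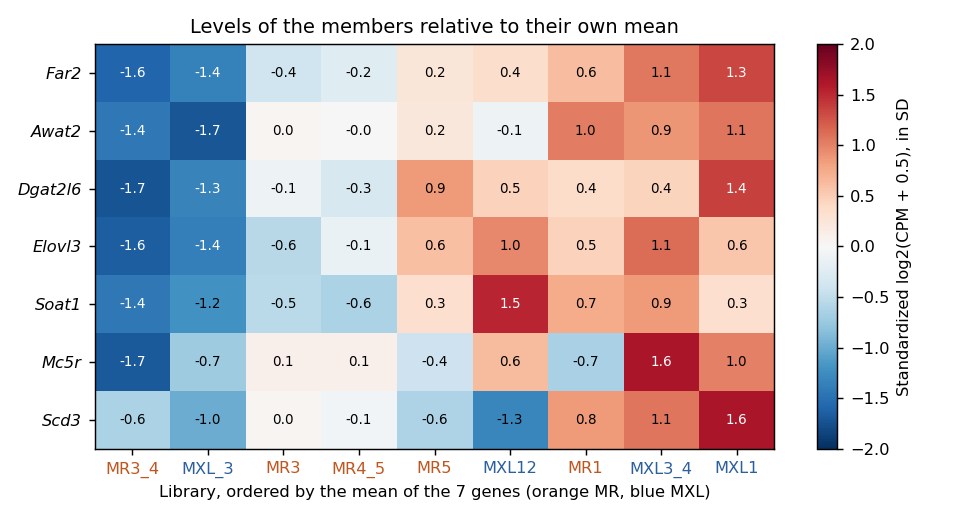
Standardized log2(CPM + 0.5) of each gene (rows) in each library (columns, ordered by the mean of the 7 genes, MR labels in orange and MXL labels in blue), in SD from the gene's own mean. MR3_4 and MXL_3 on the left are low for all genes and MXL3_4 and MXL1 on the right are high, while Scd3 is low and Soat1 high in MXL12.

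Of the other tested genes, those most like the mean profile of the 7 were Awat1 (r = 0.995), a wax ester synthase next to Awat2 and Dgat2l6, and Pank1 (0.987), a kinase of coenzyme A synthesis. They were followed by Aadacl2fm2 (0.983), Gm9944 (0.982), 6430553K19Rik (0.976), Rdh1 (0.976), Aadacl4 (0.975) and Rdh11 (0.974). Rdh1 and Rdh11 are retinol dehydrogenases, and 6430553K19Rik had only 0 to 50 counts per library. Awat1 ran from 21.5 to 98.5 CPM, with a change of -0.51 (edgeR adjusted p = 1.00). The lowest r belonged to Gm11517 (-0.983), with 6 to 23 counts, and to Msc (-0.969), Pax7 (-0.940) and Ldha (-0.940). Msc and Pax7 encode transcription factors of muscle precursor cells, and Ldha is the lactate dehydrogenase subunit abundant in muscle. Msc and Pax7 were also low, with 0 to 132 and 16 to 226 counts per library, whereas Ldha was at 446 to 1026 CPM.

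The mean profile of the 7 genes had r = -0.63 with the skeletal muscle score and -0.49 with the white adipocyte score, and r = 0.75 with the cholesterol synthesis list. The muscle score and the 7 genes did not move strictly together, since MR3 had a muscle score of 9.24 and stood near the middle for these genes. With hair follicle genes r was 0.12 and with neutrophil genes -0.24. It was 0.62 with fatty acid, 0.43 with basal and 0.21 with differentiated keratinocyte, -0.32 with ester and -0.38 with melanocortin genes. Without the 2 libraries farthest from each score's median, r was -0.58 for muscle, -0.35 for white adipocyte and 0.83 for cholesterol. It was then 0.25 for fatty acid, 0.32 for basal and -0.33 for differentiated keratinocyte genes. For hair follicle it was 0.36, for neutrophil -0.43, for ester -0.02 and for melanocortin genes 0.10. The part of the tissue makeup in these levels was not tested beyond the covariate given above.

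Scd3 departed from the rest. Its r with the other 6 genes ran from 0.25 with Soat1 and 0.40 with Elovl3 to 0.77 with Awat2, where pairs without Scd3 ran from 0.65 to 0.94. Scd3 was lowest in MXL12, where Soat1 was at its highest and Elovl3 near its highest. In MR5, Scd3 was as low as in MR3_4, while Elovl3 was at its highest level in MR. Scd3 tracked the other sebaceous markers more closely than the mean of the 7 genes did, with r = 0.90 against 0.51. Without MR1 and MXL1 the value of 0.51 fell to 0.21, and the value of Scd3 was not recomputed this way. The likeness of Scd3 was not particular to that list. Its r was also 0.75 with the cholesterol list and 0.75 with the fatty acid list. It was 0.65 with basal keratinocyte, 0.51 with differentiated keratinocyte and -0.73 with neutrophil genes. With the muscle score the r of Scd3 was -0.01.

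Genes most like Scd3, looked up after its values were seen, were Aldh3a1 (r = 0.973), Serpina3j (0.954), Gm13583 (0.939), Sdr42e1 (0.925), Gsg1l (0.922) and Fa2h (0.922). Fa2h, the fatty acid 2-hydroxylase, was at 464, 308, 176, 242 and 133 CPM in MR and at 769, 187, 356 and 155 CPM in MXL. Cidea, a lipid droplet protein of sebocytes, ranked 7th among all genes with r = 0.921. Krt15, a marker on the basal keratinocyte list, ranked 25th with r = 0.89. Acsbg1 of the sebaceous list ranked 26th, also with 0.89. Krt79 ranked 272nd with r = 0.77 and Far2 ranked 756th with 0.69.

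MXL12 and MR5 also differed from the other libraries in base composition. Transcripts with a GC content over 54.2%, the upper 20%, were lower there by a median of -0.61 and -0.64 on the log2 scale, and MXL1 was at 0.52. Scd3 transcripts have 49.3% GC, close to the median of 48.7%. The 1313 genes within 1 percentage point of its GC content deviated by medians of -0.10 to 0.08 per library, where Scd3 itself deviated by -2.03 in MXL12 and 2.56 in MXL1. Because the normalization centres most genes, medians near 0 at a GC content near the median were largely fixed in advance. With an offset for GC content, the change of Scd3 was -1.18. The part of base composition in the Scd3 levels was not tested beyond this offset.

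**Figure D5:**
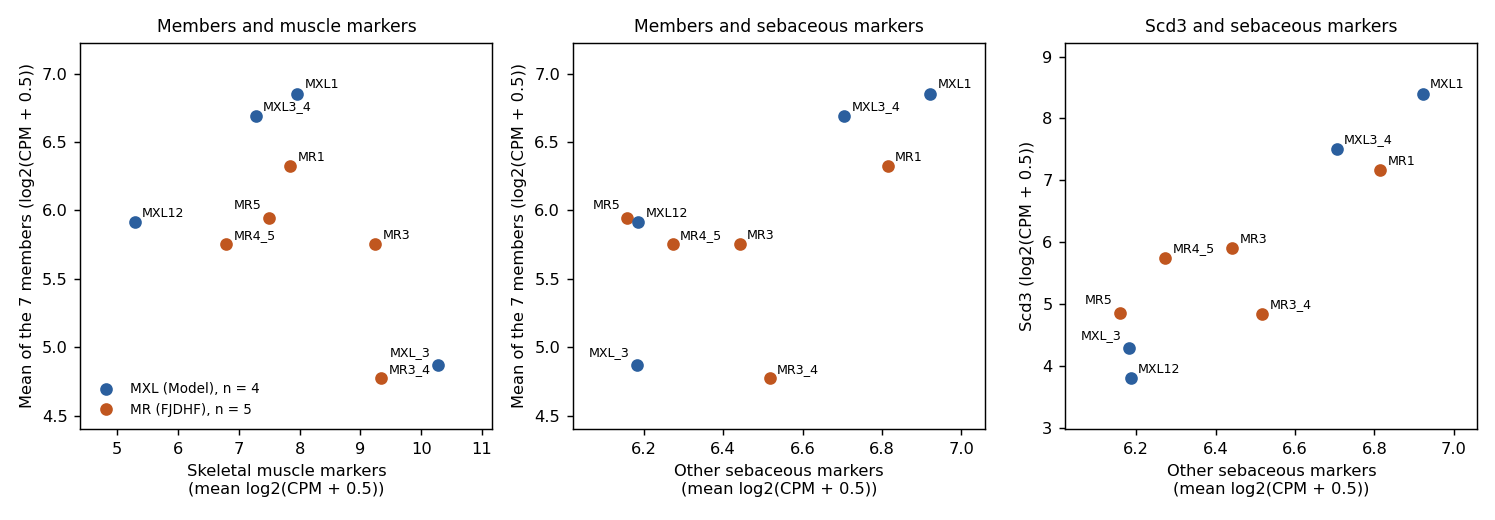
Mean level of the 7 genes against the skeletal muscle score (left) and against the score of 16 other sebaceous markers (middle), and Scd3 against the same sebaceous score (right), all as log2(CPM + 0.5), 1 point per library, MXL in blue and MR in orange. MXL_3 and MR3_4 lie low in the left and middle plots, and Scd3 rises with the sebaceous score from MXL12, MXL_3 and MR5 to MXL1.

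Apart from Awat1, given above, the paralogs did not share these profiles in the same way. Scd1, the main desaturase of skin and fat, was at 5880, 3831, 7820, 2986 and 4765 CPM in MR and at 4975, 5281, 6054 and 4662 CPM in MXL, a change of -0.05 ± 0.274 (edgeR adjusted p = 1.00). It was highest in MR3_4, where 6 of the 7 genes were at or near their lowest. Scd3 amounted to 3.34%, 2.14%, 0.498%, 2.45% and 0.824% of the FPKM of Scd1 in MR and to 9.32%, 0.351%, 4.14% and 0.563% in MXL.

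Scd2 was at 509 ± 85.7 CPM in MR and 412 ± 55.7 CPM in MXL (change 0.31 ± 0.174), and Scd4 was near 1 CPM in both groups. Dgat2, the triglyceride enzyme related to Awat2 and Dgat2l6, was highest in MR3_4 at 255 CPM and had a change of 0.35 ± 0.381. Far1, the broadly expressed counterpart of Far2, changed by -0.20 ± 0.233. None of these 4 genes passed the edgeR test, each with an adjusted p of 1.00.

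In the wider pathways, 0 genes passed the adjusted test and 0 had an unadjusted p under 0.05 among 22 genes of fatty acid synthesis (median change -0.04), 17 of ester and lipid droplet synthesis (0.06) and 22 of cholesterol synthesis and uptake (-0.09). The same held for the 16 sebaceous markers (-0.17) and for 4 melanocortin genes (0.57), where Pomc, Asip, Mc3r, Mc4r and Mrap2 were too low to be tested. The genes with the smallest edgeR p of each list are given with their exact permutation p. In fatty acid synthesis these were Elovl5 (change -0.62 ± 0.298, exact p = 0.151), an elongase of polyunsaturated fatty acids, and Scd2 (exact p = 0.103). In ester synthesis they were Mogat2 (0.93, exact p = 0.127) and Awat1 (exact p = 0.421), and for cholesterol Soat2 (-1.26, exact p = 0.230) and Dhcr7 (0.31, exact p = 0.238). Among the sebaceous markers they were Gata6 (-0.54, exact p = 0.310) and Awat1, and among the melanocortin genes Agrp (0.83, exact p = 0.119) and Mc1r (1.33, exact p = 0.190). Mogat2, Soat2, Agrp and Mc1r were all under 4 CPM.

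Lists of other skin cells were read beside the 7 genes. These lists were chosen with earlier results of these data known, and genes of a list share libraries and cells. The counts below are therefore description and no test of a list. No gene of any list passed the adjusted edgeR test, and DESeq2 called Casp14. At an unadjusted p under 0.05, 7 of 17 genes of differentiated keratinocytes were higher in MR, against 0.773% of all genes, with a median change of 0.69 that was 1.18 without MXL1 and 0.44 without MXL_3. Among these were Casp14 (1.42, exact permutation p = 0.00794) and Krt1 (1.48, exact permutation p = 0.0238). Of 14 neutrophil genes, 2 were lower in MR, against 0.793% of all genes, with a median change of -1.07 over the list. Without MXL12 that median was 0.13. The neutrophil score (mean log2 level of the list) was 3.97 in MXL12 and 2.79 in MXL_3, but 1.17 in MXL1 and 1.38 in MXL3_4, below every MR library (1.64 to 2.54). The 2 neutrophil genes lower in MR were Mmp8 (-1.18, exact permutation p = 0.00794) and Trem1 (-4.08, exact permutation p = 0.778). Trem1 was at 85.2 CPM in MXL12 and at 0.304 to 0.443 CPM in the other MXL libraries. No gene of the hair follicle (20 tested, median 0.17), white adipocyte (14, 0.02), skeletal muscle (16, -0.23) or basal keratinocyte (11, 0.02) lists had an unadjusted p under 0.05.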

How the data were processed

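RNA-seq of back skin gave 9 libraries (Model 4, FJDHF 5). The methods describe poly(A) capture and strand-specific paired-end sequencing. The submitters' processing notes name HISAT, StringTie and DESeq2 without versions and the build mm10, and the annotation release and the strand setting of the counting are not given in the sources used here. The authors deposited unnormalized read counts per gene. They also deposited FPKM values, normalized for transcript length and library depth. A further 9 count columns stand beside the FPKM values, equal the first table and were left unused.

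The 7 genes and all gene lists were chosen with earlier results of these data known. MR columns were assigned to FJDHF and MXL columns to Model from the group sizes, which the labels do not state for the codes.

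Counts were tested with edgeR 4.0.16 in R 4.3.3, using TMM factors, filterByExpr and the quasi-likelihood test with Benjamini-Hochberg adjustment over 20817 genes. Alternatives were DESeq2 1.42.0 (size factors, Wald test), limma 3.58.1 on log2(FPKM + 1) and log2(FPKM + 0.1), no filter, at least 10 counts in every library, a muscle score covariate, a replicate block, a GC offset and leaving out libraries. The exact permutation tests used Python 3.11.15 with pseudocounts of 0.5 or 0.1 CPM, and correlations used scipy 1.17.1. The steps were tested on simulated data. No pair of libraries out of 36 agreed within counting noise (chi-square per degree of freedom 100.1 or more), so none was a repeated sequencing of another. That check cannot tell whether 2 libraries share a mouse, and each was counted as 1 library. Scores are means of log2(CPM + 0.5) over a list. Positions and transcripts came from the deposited table and GENCODE M21, and promoters from RefSeq. Totals of 74648669 to 79474215 counts put 3 counts at 0.0375 to 0.0415 CPM, a floor for counting error only. Figures used matplotlib 3.10.9.

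Genes named were the 7 members, the 2 genes with the smallest p of each pathway list, the 8 genes most and the 4 least like the mean profile, and 6 paralogs. Others were named where a result turned on them, after their values were seen.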

Additional observations from a re-analysis of the deposited data

How the results depend on the processing

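The count of called genes was 0 under all alternatives except DESeq2's Wald test (2 genes, Defb8 and Casp14) and the muscle covariate (1 gene, Rptn), none of them a sebaceous lipid gene and all named after their values were seen. The count at an unadjusted p under 0.05, 326 in the main analysis, was 905 without a filter on low counts and ran from 217 (without MR4_5) to 734 (without MXL1) with a library left out. The median change of the 7 genes stayed negative under all 19 alternatives, from -0.77 (without MXL_3) to -0.27 (without MR3_4). Whether the numbers in the column codes pair the libraries is not known. Deviations from the group mean had r of 0.22 for MR1 with MXL1, 0.12 for MR3 with MXL_3 and -0.22 for MR3_4 with MXL3_4. No r of differently numbered libraries was set beside them, so these values cannot decide it. With a replicate block from the numbers in the codes the median change was -0.62, with 281 genes at an unadjusted edgeR p under 0.05 and 0 called. MR4_5, MR5 and MXL12 each stand alone in that block, so the change rested on the other libraries.

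The number of the 7 genes with an exact p under 0.05 was 0, and 0 to 1 with a library left out. It was 1 (Mc5r) without MXL_3 and 1 (Mc5r) without MR3_4 and MXL_3 together. Relative to the sebaceous markers it was 0 under all 12 alternatives. The median r of the 21 pairs ran from 0.708 to 0.871 (without MXL12) with a library left out, and was 0.473 without MR3_4 and MXL_3.

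Of 308 values of single genes under alternatives, 19 changed sign, none of which passed a test in either direction, and the cause was not tested. In the edgeR fit these were Awat2 without MR3_4 (0.051), MXL1 (0.124) and MXL3_4 (0.044), within a range of -0.431 to 0.124 over libraries left out. In mean log2 level they were Awat2 (-0.481 to 0.214) and Scd3 (-1.03 to 0.501), each turning positive without MXL1 or MXL3_4 and Awat2 also without MR3_4. Relative to the markers, Scd3 ran from -0.867 to 0.418, Awat2 from -0.318 to 0.291, Dgat2l6 from -0.735 to 0.0452 and Soat1 from -0.350 to 0.0473. Awat2 relative to the markers was -0.0378 without MR3_4 and MXL_3, and -0.0435 with Krt79, Mgst1 and Cidea as reference. The median change of the neutrophil list, -1.07, was refitted this way after its values were seen. It ran from -1.30 to 0.127 (without MXL12) with a library left out. It was 0.366 with the replicate block, to which MXL12, alone in its block, also added nothing. Depth did not limit these genes, whose lowest count was 387. The spread between 4 and 5 libraries did, with confidence intervals for Scd3 from -3.07 to 0.78.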

Other observations

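Levels of the 7 genes, their mean, the list scores and the total counts were checked for single libraries far from the rest of their group. In 40 such checks with Dixon's ratio none was past the 95% critical value, where about 2 would be by chance.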
